A study of Mus musculus with 2 samples.

Results

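Aminoacyl-tRNA synthetases are the enzymes that join each amino acid to its transfer RNA, and 36 genes that encode them were measured in MEL cells, a mouse leukemia line blocked at an early red cell stage. The genes were taken as a list of symbols by a rule that uses no measured value, and all 36 were found among 43346 gene identifiers. The list held 20 genes without the suffix 2, called cytosolic here, and 16 with it, which encode the mitochondrial enzymes. The cells had been kept for 5 days in 2% dimethyl sulfoxide (DMSO), which starts hemoglobin synthesis in this line. PolyA RNA was sequenced single-end in 2 libraries, numbered as replicates 1 and 2 of 1 group by the labels. Untreated cells were not analysed here, so the values give levels under DMSO and say nothing of a change caused by it. Both libraries carry 1 cell sample identifier, so it is not known from the labels if the cultures were grown apart, and the spread between libraries may be technical.

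Mammalian cells run translation in the cytosol and in mitochondria, and most amino acids have a separate nuclear gene for the enzyme of each compartment. Kars and Gars are exceptions and supply both compartments from 1 gene each. Eprs fuses the glutamate and proline enzymes of the cytosol. Glutaminyl-tRNA of mammalian mitochondria is made in a pair of steps, by charging with glutamate and then amidation. Many cytosolic synthetases sit in a multi-synthetase complex held by scaffold proteins. In red cell precursors these enzymes feed the synthesis of globin, and in humans inherited changes of YARS2 cause a sideroblastic anemia. Synthetases fall into class I and class II, a pair of unrelated catalytic folds.

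Replicate 1 held 26149725 estimated reads and replicate 2 held 14149299. Levels are given as TPM, the authors' abundance estimate scaled to transcript length and library size. With 2 libraries, means are given ± SD (n = 2), and an exact sign-flip test over 2 libraries cannot go below p = 0.5, so no test was made. All 11 erythroid markers examined reached 1 TPM in both libraries, while 0 of 25 markers of granulocytes and macrophages, lymphocytes, fibroblasts, endothelium and hepatocytes did. Those 25 genes summed to 7.09 and 6.97 TPM in replicates 1 and 2, and 9 of them were listed at 0 in both. In bulk RNA, fewer cells that express a gene and less RNA per cell cannot be told apart.

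The synthetase genes were almost all active. At least 1 TPM in both libraries was found for 35 of the 36 genes, against 45.5% of 21474 protein-coding genes. The exception was Ears2, the mitochondrial glutamate enzyme, with 0.76 TPM in replicate 1 and 1.93 TPM in replicate 2. The median synthetase stood at 19.1 and 22.9 TPM, against 13.8 and 15.9 TPM for the 9776 protein-coding genes detected by the same limit. The middle 50% of the synthetases lay between 7.21 and 43.7 TPM in replicate 1 and between 9.30 and 50.8 TPM in replicate 2. The members thus spread widely on both sides of the median of detected genes.

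Compartment went with level. The 20 cytosolic genes had a median of 38.6 TPM in replicate 1 and 48.0 TPM in replicate 2, and the 16 mitochondrial genes had 6.03 and 8.14 TPM. Summed, the cytosolic genes held 1065 and 1049 TPM and the mitochondrial genes 137 and 168 TPM, a ratio of 7.77 and 6.26. On the log2(TPM + 0.1) scale the cytosolic median lay above the mitochondrial one by 2.65 in replicate 1 and 2.55 in replicate 2, a mean of 2.60 ± 0.072 (SD, n = 2). At gene level the difference was far larger than the spread between the libraries. The ranges still overlapped. In replicate 1, 13 cytosolic genes lay above Iars2, the highest mitochondrial gene, and in replicate 2, 14 lay above Lars2, the highest there. Conversely, 12 and 10 mitochondrial genes lay below Lars, the lowest cytosolic gene in both libraries. The enzymes are different genes and not replicates of a compartment, so the SD covers the libraries only.

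**Figure D1:**
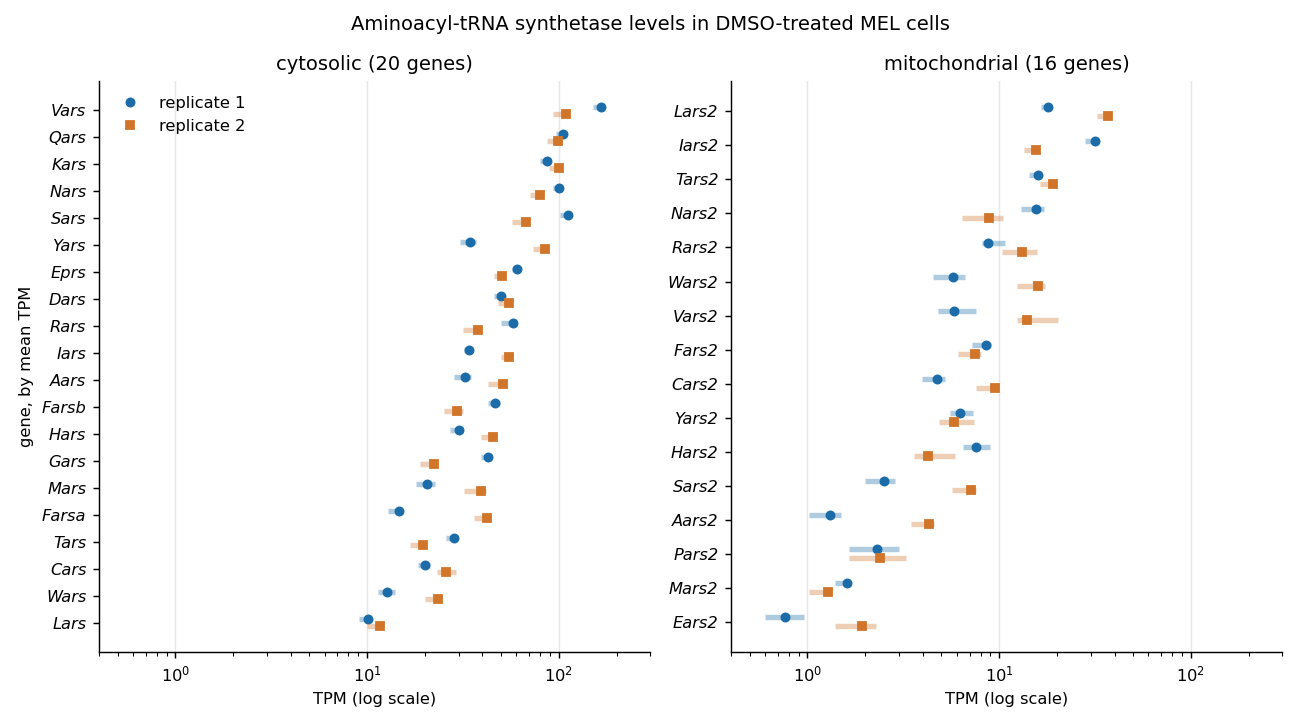
TPM on a log scale for the 20 cytosolic genes (left) and the 16 mitochondrial genes (right), with a circle for replicate 1, a square for replicate 2 and a pale bar for the authors' credibility bounds within a library. By mean TPM, the cytosolic genes run from Lars at 10.1 and 11.7 TPM to Vars at 165 and 109 TPM, and the mitochondrial genes from Ears2 at 0.76 and 1.93 TPM to Lars2 at 18.1 and 37.0 TPM.

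Of the cytosolic enzymes, the 8 of the multi-synthetase complex had a median of 53.7 TPM in replicate 1 and 52.7 TPM in replicate 2, and the 12 outside it had 33.5 and 43.6 TPM. Qars, which charges glutamine, was the highest of the complex with 106 and 99.5 TPM. Kars, the lysine enzyme, had 86.4 and 100.8 TPM. These genes exchanged places between the libraries, with means of 103 ± 4.31 TPM for Qars and 93.6 ± 10.2 TPM for Kars, so their order is not resolved. Eprs, the fused glutamate and proline enzyme, had 60.7 and 50.8 TPM. Dars, which charges aspartate, had 49.7 and 55.1 TPM. Rars, the arginine enzyme, had 57.7 and 37.9 TPM. Those 3 genes lay within about the spread of Rars, whose mean was 47.8 ± 14.0 TPM. Iars, the isoleucine enzyme, had 34.2 and 54.7 TPM. Mars, which charges methionine to both initiator and elongator tRNA, had 20.6 and 39.1 TPM. Lars, which charges leucine and in human cells also acts as a leucine sensor for mTORC1, stood lowest with 10.1 and 11.7 TPM. It was the lowest of all 20 cytosolic genes in each library, with a mean of 10.9 ± 1.17 TPM.

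Outside the complex, Vars, the valine enzyme (chr17:35000987-35016322, plus strand, mm10), was the highest of all 36 genes in both libraries, with 165 and 109 TPM. Nars, the asparagine enzyme, had 101 and 79.7 TPM. Sars, the serine enzyme, had 112 and 67.5 TPM. The means of Nars (90.1 ± 14.7 TPM) and Sars (89.9 ± 31.7 TPM) did not differ beyond their spread, nor did either from Kars. Yars, the tyrosine enzyme, had 34.4 and 84.5 TPM, the widest SD of the cytosolic genes outside Vars at 35.4 TPM. Aars, the alanine enzyme, had 32.6 and 51.1 TPM. Hars, the histidine enzyme, had 30.1 and 45.2 TPM. All 3 were lower in replicate 1. Gars, the glycine enzyme of both compartments, went the other way with 42.7 and 22.2 TPM, as did Tars, the threonine enzyme, with 28.6 and 19.6 TPM. Cars, which charges cysteine, had 20.1 and 25.8 TPM. Wars, the tryptophan enzyme and an interferon-induced gene in many cells, had 12.7 and 23.6 TPM. Cars and Wars stood near the lower end of the cytosolic range with Lars.

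The phenylalanine enzyme of the cytosol is built from the products of Farsa and Farsb in equal parts. Farsa, the catalytic subunit, had 14.6 TPM in replicate 1 and 42.0 TPM in replicate 2. Farsb, the other subunit, had 46.5 and 29.6 TPM. The order of the subunits thus turned round between the libraries, with Farsa over Farsb at a log2 ratio of -1.66 in replicate 1 and 0.51 in replicate 2 (mean -0.58 ± 1.53, SD, n = 2). By catalytic class, the 9 cytosolic class I genes had medians of 34.2 and 39.1 TPM and the 10 class II genes had 44.6 and 48.1 TPM, with Eprs counted in neither because it holds both folds. Class I spanned the wider range, from 10.1 to 165 TPM in replicate 1 and from 11.7 to 109 TPM in replicate 2. Class II ran from 14.6 to 112 TPM and from 19.6 to 100.8 TPM.

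Promoters were read for the 27 members that had an entry in the RefSeq promoter table of GRCm38.p6, from 250 bases before to 50 bases after the start site. Cars, Hars, Hars2, Lars, Nars, Pars2, Rars, Vars and Wars had no entry. The letters TGATGCAA, the core of the amino acid response element bound by ATF4 with a C/EBP partner, were searched on both strands and stood in 4 of 27 member promoters, against 0.895% of 32851 promoters in the table. All 4 belong to cytosolic enzymes (4 of 13 cytosolic promoters and 0 of 14 mitochondrial ones). They are shown because they are the members that share this motif, whose bases are in capitals. The motif is printed as TTGCATCA where it lies on the opposite strand.
Aars, chr8:111033592-111033891, plus strand: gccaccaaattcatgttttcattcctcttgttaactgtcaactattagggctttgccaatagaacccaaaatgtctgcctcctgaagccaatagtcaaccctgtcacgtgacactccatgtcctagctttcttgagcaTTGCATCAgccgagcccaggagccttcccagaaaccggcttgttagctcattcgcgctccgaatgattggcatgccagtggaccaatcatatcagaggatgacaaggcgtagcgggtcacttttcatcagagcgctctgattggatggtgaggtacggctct
Iars, chr13:49681880-49682179, plus strand: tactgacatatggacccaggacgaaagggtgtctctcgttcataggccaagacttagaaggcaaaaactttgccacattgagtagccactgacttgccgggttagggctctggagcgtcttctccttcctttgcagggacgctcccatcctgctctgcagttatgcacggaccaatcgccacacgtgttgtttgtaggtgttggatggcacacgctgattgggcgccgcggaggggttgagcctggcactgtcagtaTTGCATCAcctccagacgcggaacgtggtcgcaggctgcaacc
Tars, chr15:11399609-11399908, minus strand: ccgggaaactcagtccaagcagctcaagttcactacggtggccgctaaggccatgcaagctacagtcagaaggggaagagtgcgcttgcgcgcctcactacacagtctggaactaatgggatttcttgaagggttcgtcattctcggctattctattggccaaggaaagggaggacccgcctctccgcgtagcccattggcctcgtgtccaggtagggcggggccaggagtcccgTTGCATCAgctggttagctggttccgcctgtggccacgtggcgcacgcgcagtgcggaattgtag
Yars, chr4:129189653-129189952, plus strand: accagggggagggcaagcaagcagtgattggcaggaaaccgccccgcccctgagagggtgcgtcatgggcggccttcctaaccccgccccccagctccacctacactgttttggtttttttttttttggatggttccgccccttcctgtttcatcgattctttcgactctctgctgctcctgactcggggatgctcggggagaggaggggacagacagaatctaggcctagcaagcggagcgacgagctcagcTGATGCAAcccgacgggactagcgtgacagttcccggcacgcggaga

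In these sequences the motif began 112 bases before the start site in Aars, 15 bases before it in Tars, 7 bases after it in Iars and 3 bases after it in Yars. The 4 genes had 32.6, 34.2, 28.6 and 34.4 TPM in replicate 1 for Aars, Iars, Tars and Yars, and 51.1, 54.7, 19.6 and 84.5 TPM in replicate 2. In replicate 1 all 4 lay between the cytosolic quartiles of 26.6 and 67.1 TPM. In replicate 2 Tars lay below and Yars above the quartiles of 28.6 and 70.5 TPM. The E-box letters CACGTG stood in 5 of 27 member promoters, those of Aars, Ears2, Farsb, Iars and Tars, against 7.15% of all promoters. The NRF1-type letters GCATGCGC stood in 3, all of them mitochondrial (Rars2, Vars2 and Wars2), against 2.71% of all. The ETS-type letters CCGGAAG stood in 9 members and 8.86% of all promoters. The erythroid GATA letters AGATAA stood in 3 members (Aars2, Farsb and Sars2) and 11.2% of all. Every motif was searched on both strands, and a match is a description of the letters only.

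The mitochondrial enzymes ran over a wide scale. Lars2, which charges leucine in mitochondria and in humans is a Perrault syndrome gene, had 18.1 TPM in replicate 1 and 37.0 TPM in replicate 2. Iars2, the isoleucine enzyme, had 31.7 and 15.6 TPM. Tars2, the threonine enzyme, had 15.9 and 19.2 TPM. These 3 were the highest of the mitochondrial genes by mean, and their order changed between the libraries. Nars2, for asparagine, had 15.6 and 8.80 TPM. Rars2, for arginine, had 8.77 and 13.1 TPM. Wars2, for tryptophan, had 5.77 and 15.9 TPM, and Vars2, for valine, had 5.82 and 14.0 TPM. Wars2 and Vars2 were both more than 2-fold lower in replicate 1 in TPM, so their place in the order is unsure. Fars2, which works alone in mitochondria for phenylalanine, had 8.50 and 7.47 TPM. Cars2, for cysteine, had 4.76 and 9.46 TPM. Yars2, for tyrosine, had 6.24 and 5.79 TPM (mean 6.02 ± 0.318 TPM), an SD far below its level.

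The other mitochondrial enzymes stood lower by mean TPM, though not in each library. Hars2, for histidine, had 7.53 and 4.23 TPM. Sars2, for serine, had 2.52 and 7.16 TPM, and Aars2, for alanine, had 1.31 and 4.31 TPM. Sars2 and Aars2 were both lower in replicate 1, in TPM by more than 2-fold. Pars2, for proline, had 2.30 and 2.40 TPM from 63 and 55 reads. Mars2, for methionine, had 1.61 and 1.28 TPM from 440 and 197 reads on 1 transcript of 11294 bases. Ears2 had 84 and 85 reads behind its 0.76 and 1.93 TPM. Pars2, Mars2 and Ears2 were the lowest by mean, at 2.35 ± 0.071 TPM for Pars2, 1.45 ± 0.233 TPM for Mars2 and 1.35 ± 0.827 TPM for Ears2. Mars2 and Ears2 did not differ beyond the spread of Ears2. The authors' credibility bounds, which cover estimation within a library, did not overlap between the libraries for 29 of the 36 genes. The share over all genes was not computed, so the count is not a trait of the synthetases. The bounds lie around the posterior mean and can leave out the TPM. For Kars in replicate 1 they ran from 79.8 to 84.8, around a posterior mean of 82.3, beside 86.4 TPM.

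Within an amino acid, the cytosolic enzyme was the higher one in both libraries for 12 of the 13 amino acids with 1 listed gene in each compartment. The median over the 13 pairs of the mean log2 ratio was 2.68, a 6.43-fold excess of the cytosolic gene, and 6 pairs exceeded 4-fold in both libraries. Sars over Sars2, the serine pair, had a log2 ratio of 5.42 in replicate 1 and 3.22 in replicate 2 (mean 4.32 ± 1.56, SD, n = 2). Mars lay above Mars2 by log2 ratios of 3.60 and 4.83, or 12.1-fold and 28.4-fold. This size rests on division by length, since the only annotated Mars2 transcript has 11294 bases. By counts not divided by length, the mean log2 ratio of Mars over Mars2 was 0.89, against 4.21 by TPM. Aars lay above Aars2 by 4.53 and 3.54, or 23.2-fold and 11.6-fold. In these pairs the low level of the mitochondrial gene, at most 7.16 TPM, stood against a cytosolic gene of at least 20.6 TPM. Vars lay above Vars2 by 4.80 and 2.95. Yars lay above Yars2 by 2.45 and 3.85, and Hars above Hars2 by 1.98 and 3.39. The valine, tyrosine and histidine pairs differed between the libraries by more than 1 on the log2 scale without a change of direction. The serine, methionine, arginine and isoleucine pairs did so too. Nars lay above Nars2 by 2.68 and 3.17, the closest agreement of any pair (SD 0.344). Rars lay above Rars2 by 2.70 and 1.53, and Cars above Cars2 by 2.05 and 1.44. The cytosolic excess was at least 2.71-fold in each library for the 9 pairs whose ratios are given so far.

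Leucine was the only reversed pair. Lars had 10.1 and 11.7 TPM, and Lars2 (chr9:123366927-123462666, plus strand) had 18.1 and 37.0 TPM. The log2 ratio of Lars over Lars2 was -0.83 in replicate 1 and -1.65 in replicate 2 (mean -1.24 ± 0.575, SD, n = 2), so Lars2 was 1.78-fold and 3.13-fold the higher gene. Lars had 932 and 613 reads and Lars2 had 1679.5 and 1944. Each gene has 1 annotated transcript, with a complete coding sequence, so no other transcript could take its TPM. Neither gene shares 100 bases at 95% identity with another gene. Shorter matches were not sought. The posterior SD of the estimated count was 4.29 and 3.14 reads for Lars2, and 0 in both libraries for Lars.

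3 further pairs lay near equality in at least 1 library. Threonine had a log2 ratio of 0.84 in replicate 1 and 0.03 in replicate 2. Isoleucine had 0.11 and 1.80, and tryptophan 1.12 and 0.56. The spread between the libraries was as wide as the mean for threonine (0.43 ± 0.572) and isoleucine (0.95 ± 1.20), so no excess of Tars or Iars is resolved at gene level. Amino acids without a simple pair also had the cytosolic gene above. Eprs lay above Ears2 by 6.14 and 4.65 on the log2 scale and above Pars2 by 4.66 and 4.35. Farsa lay above Fars2 by 0.78 and 2.48, and Farsb by 2.44 and 1.97.

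**Figure D2:**
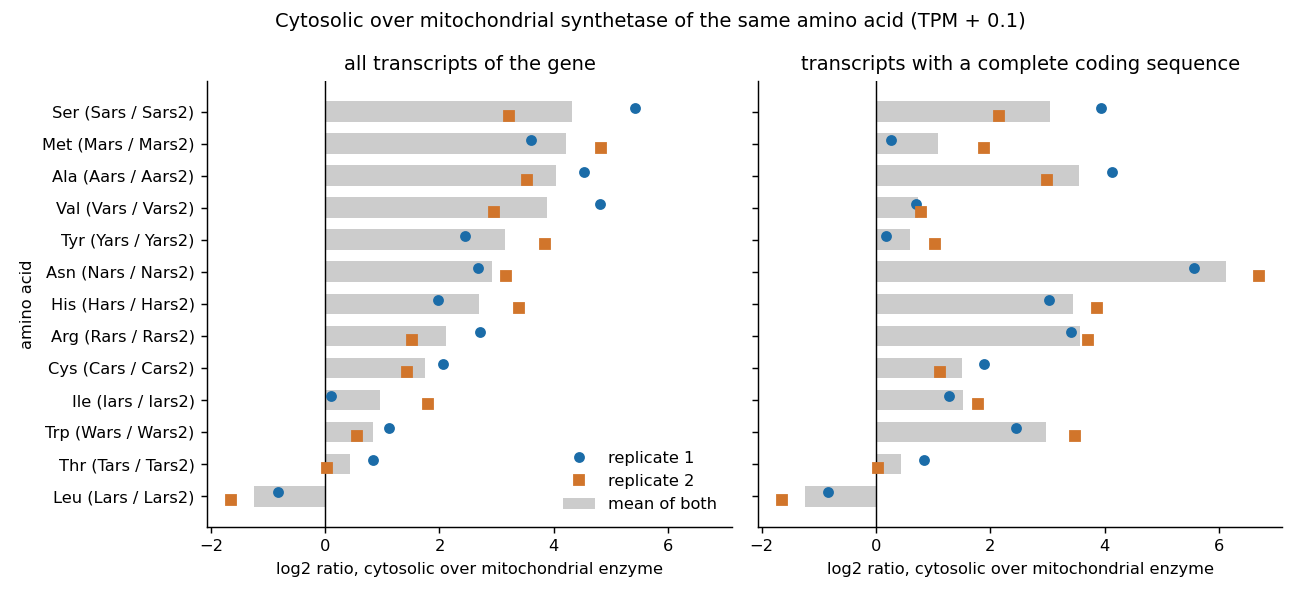
Log2 ratio of the cytosolic over the mitochondrial enzyme for 13 amino acids, from all transcripts (left) and from transcripts with a complete coding sequence (right), with a circle for replicate 1, a square for replicate 2 and a grey bar for their mean. Leucine alone lies below 0, at -0.83 and -1.65 in both panels, while valine, at 4.80 and 2.95 on the left, lies at 0.70 and 0.78 on the right.

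Gene-level TPM sums all annotated transcripts of a gene, including ones that encode no full enzyme. The transcript with the highest mean share of the gene's TPM was not of the protein-coding class in 9 of the 36 genes, against 18.2% of the 9776 detected protein-coding genes. In number, 5 led with a retained-intron transcript (Ears2, Qars, Vars, Vars2 and Wars2), 3 with a processed transcript without an open reading frame (Nars2, Rars2 and Yars) and 1 with a transcript subject to nonsense-mediated decay (Farsa). The 9 of 36 genes make 25%, a share not far above the background. The same transcript led in both libraries for 28 genes, and 10 genes had 1 transcript only.

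Vars showed the strongest split. Its leading transcript by mean share was Vars-205, a 347-base retained-intron fragment, with 81.4% of the gene's TPM in replicate 1 and 35.5% in replicate 2. The same fragment held 28.9% and 5.14% of the gene's reads, since TPM divides by length. Vars-203, a retained-intron transcript of 3731 bases, held 63.6% and 74.3% of the reads. Vars-201, with the complete coding sequence, held 4.79% and 15.7% of the reads, or 1.65 and 8.74 TPM. On complete coding transcripts Vars thus stood 24th by mean and not first of the 36. Qars (chr9:108507706-108515941, plus strand) also led with a short retained-intron fragment, Qars-215 of 600 bases, at 64.4% and 36.8% of TPM, and its complete coding transcripts held 13.3 and 15.9 TPM. A further Qars transcript of 2150 bases, absent from M21 and so of unknown class here, held 26.1% and 43.7% of the reads, or 13.7 and 27.7 TPM. If it is coding, the complete coding level of Qars is understated. Yars led with Yars-204, a processed transcript of 921 bases with 69.7% and 62.0% of TPM, which left 7.07 and 11.6 TPM on complete coding transcripts.

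Both subunits of the phenylalanine enzyme also had most of their TPM outside complete coding transcripts. Farsa-206, of the nonsense-mediated decay class, held 74.3% of Farsa TPM in replicate 1 and 78.4% in replicate 2, and the complete coding transcripts held 2.72 and 3.19 TPM. Farsb had 13.8 and 8.91 TPM on complete coding transcripts. Counted so, Farsa lay below Farsb in both libraries, by log2 ratios of -2.30 and -1.45, whereas at gene level the order turned round. Mars led with Mars-203, a 621-base transcript whose coding sequence is annotated as incomplete, at 82.2% and 50.4% of TPM, and complete coding transcripts of Mars held 1.96 and 5.03 TPM. Sars led with Sars-204, also incomplete and 637 bases long, at 64.3% and 52.2%.

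Other members had all or nearly all of their TPM on transcripts with a complete coding sequence. Kars (chr8:111993443-112011323, minus strand) had 86.3 and 100.8 TPM on complete coding transcripts, split over Kars-201 (79.5% and 83.1%), Kars-202 (11.3% and 15.3%) and Kars-203 (9.14% and 1.58%). Nars had 101 and 79.7 TPM, Eprs 58.1 and 49.5 TPM, and Dars 48.7 and 54.3 TPM. On complete coding transcripts these 4 genes were the highest by mean, and Kars and Nars (93.6 ± 10.2 and 90.1 ± 14.7 TPM) were not separated. Across the group, complete coding transcripts held 56.8% and 59.6% of cytosolic TPM and 61.8% and 72.8% of mitochondrial TPM. By reads they held more, 81.5% and 78.1% of cytosolic and 77.6% and 89.5% of mitochondrial reads. Short fragments thus took a larger part of TPM than of reads, and 8 of the 36 leading transcripts were under 1000 bases.

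The comparison of compartments kept its direction on this scale. On complete coding transcripts the cytosolic median was 26.6 and 21.4 TPM and the mitochondrial median 2.76 and 4.68 TPM. Of the 13 pairs, 12 had the cytosolic gene higher in both libraries, with leucine the other way. The leucine and threonine pairs could not move, because every annotated transcript of Lars, Lars2, Tars and Tars2 has a complete coding sequence. Other pairs moved in size. Over the 13 pairs, the median of the mean log2 ratio was 1.53, a 2.89-fold excess of the cytosolic gene. At gene level it was 2.68, a 6.43-fold excess. Vars over Vars2 came to log2 ratios of 0.70 and 0.78, against 4.80 and 2.95 at gene level. Yars over Yars2 came to 0.18 and 1.03. Mars over Mars2 came to 0.27 and 1.89. Asparagine moved the other way, with Nars over Nars2 at 5.57 and 6.70. A processed transcript of 588 bases held 73.5% and 75.3% of Nars2 TPM, and the complete coding transcripts of Nars2 had 2.02 and 0.67 TPM. Farsa fell below Fars2 on this scale, by -1.61 and -1.20. Ears2 was listed at 0 on complete coding transcripts in replicate 1 and had 0.85 TPM in replicate 2.

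**Figure D3:**
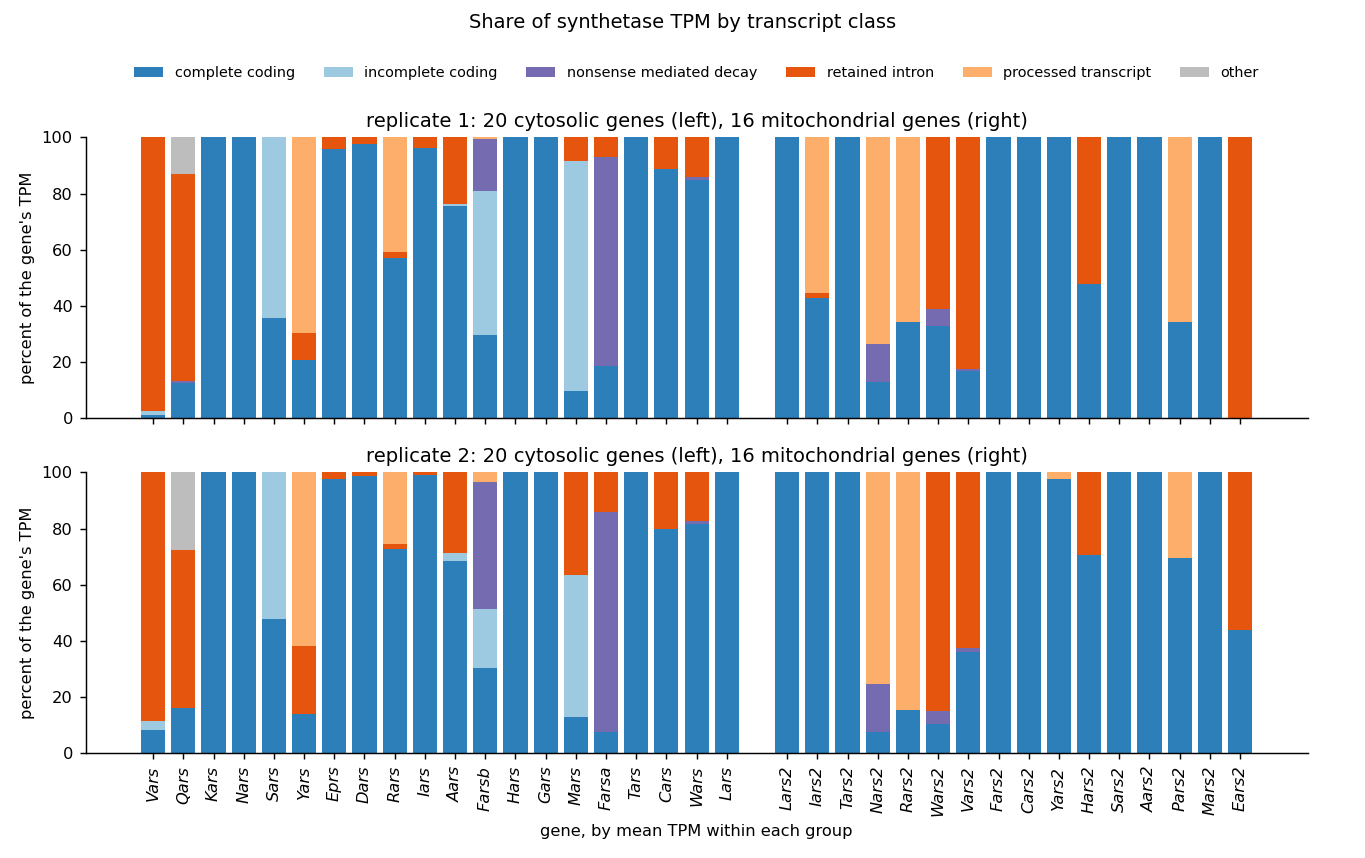
Percent of each gene's TPM by transcript class in replicate 1 (top) and replicate 2 (bottom), with 20 cytosolic genes on the left and 16 mitochondrial genes on the right, each ordered by mean TPM, and grey for a transcript absent from M21. Vars, Qars, Yars, Mars and Farsa carry mostly colours other than the dark blue of complete coding transcripts in both libraries, while Kars, Nars, Gars, Tars, Lars, Lars2 and Tars2 are wholly dark blue.

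The gap between the libraries in Iars2 (chr1:185284726-185329396, minus strand) lay in 1 transcript. This processed transcript of 1866 bases held 55.5% of Iars2 TPM in replicate 1 and was listed at 0 in replicate 2. Complete coding transcripts of Iars2 had 13.5 and 15.6 TPM, closer together than the gene's 31.7 and 15.6 TPM. With them, Iars over Iars2 had log2 ratios of 1.27 and 1.79, both cytosolic.

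Several members share sequence or position with other genes, and no source used here gives the strand setting of the counting. Overlap with another protein-coding gene was found for 11 members, and 20 members either overlapped one or shared at least 100 bases at 95% identity with another gene. The same counts were not made over all genes, so they do not set the synthetases apart. Aars and Exosc6 lie on the same strand and share 1326 identical bases of annotated transcript. Iars2 and Rab3gap2, on opposite strands, share 2034 bases. Iars resembles Gm4849 over 1656 bases at 96.0% identity. Mars overlaps Ddit3 on the opposite strand, and Ddit3 had 165 and 173 TPM, above Mars at 20.6 and 39.1 TPM. Fars2 shares 503 bases with Nrn1, and Hars and Hars2 share 195 bases head to head. The part of such sharing in the levels was not tested. The posterior SD of the estimated count was at most 18.5 reads for any member and under 5 reads for 35 of them.

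The libraries were then set against each other, as replicate 1 over replicate 2 from TMM-scaled counts, with 1 library against 1 and so no test. All 36 members passed the minimum of a mean of 10 counts. 2 members were above 2-fold, Nars2 at a log2 ratio of 1.19 and Gars at 1.13, against 16.5% of 13522 genes. 3 were below 0.5-fold, Aars2 at -1.52, Sars2 at -1.31 and Farsa at -1.25, against 15.0% of genes. With this scaling the members' shares, 2 and 3 of 36, lay under the background in both directions. Their median was -0.09, against -0.01 over all genes, and 15 were higher and 21 lower in replicate 1. Scaling by total counts moved the median of all genes by -0.25 and that of the members to -0.34. By total counts 0 members were above 2-fold, against 11.6% of all genes, and 8 were below 0.5-fold, against 22.4% of all genes. The 8 of 36 is near that background, so the counts in each direction are relative to the scaling.

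The ratio went with base composition. GC content of the transcripts ran from 38.8% in Mars2 to 60.1% in Sars2, and Sars2, Aars2 and Farsa, the members lowest in replicate 1, had 60.1%, 60.0% and 55.9%. Spearman's rho between GC content and the log2 ratio was -0.65 across the 36 members and -0.66 across all genes tested, a description across genes that share the same libraries. With a lowess GC trend removed, 0 members were below 0.5-fold and 2 above 2-fold, Sars and Gars, both at 1.12, against 7.49% and 8.68% of all genes. Those shares are over all 13522 genes tested, of which 13334 had a GC value. With the trend removed, Aars2 had -0.50, Sars2 -0.29, Farsa -0.58 and Nars2 0.98. Gars was above 2-fold under both measures, at 1.13 and 1.12, and had 0.88 by total counts, with 2428 reads in replicate 1 and 714 in replicate 2. What set the trend was not tested.

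**Figure D4:**
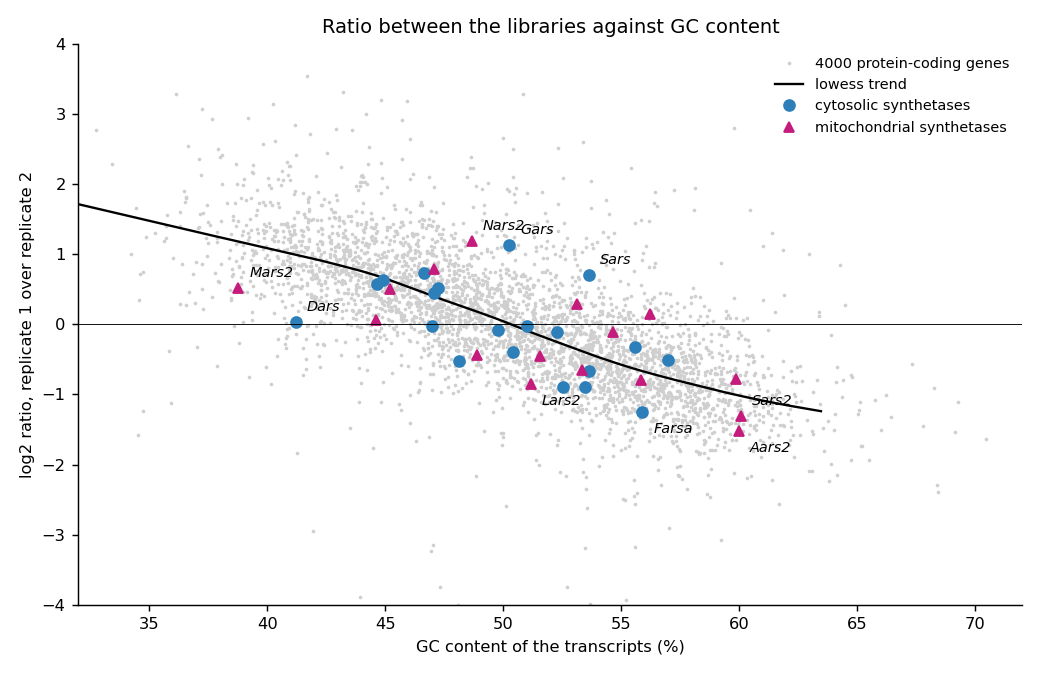
Log2 ratio of replicate 1 over replicate 2 against GC content in percent, with circles for cytosolic and triangles for mitochondrial synthetases, grey points for 4000 protein-coding genes drawn at random, of which 49 lie outside the axes, and a black lowess trend. Synthetases follow the falling trend from Mars2 at 38.8% GC to Sars2 at 60.1% GC, with Gars and Sars above it and Dars below it.

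Genes that work with the synthetases were read as lists. The 3 scaffold proteins of the complex were all detected, Aimp1 with 68.9 and 38.4 TPM, Aimp2 with 13.0 and 31.4 TPM, and Eef1e1 with 19.6 and 16.9 TPM. Aimp1 was higher and Aimp2 lower in replicate 1. Of the mitochondrial glutaminyl-tRNA amidotransferase, which finishes the charging that Ears2 begins, Gatc had 43.8 and 32.7 TPM and Gatb 4.49 and 8.90 TPM. Qrsl1, its catalytic subunit, had 0.86 and 0.59 TPM and was the only gene of this list of 4 under 1 TPM. Ears2 and Qrsl1, consecutive steps of 1 pathway, were both under 1 TPM in replicate 1. In replicate 2 Ears2 had 1.93 TPM and Qrsl1 had 0.59 TPM. Mtfmt, which formylates the initiator methionyl-tRNA that Mars2 makes, had 7.08 and 6.72 TPM.

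Relatives of the synthetases outside the 36 genes were also active. Tarsl2, a threonine enzyme relative, had 19.8 TPM in replicate 1 and 12.5 TPM in replicate 2. Pstk, which phosphorylates seryl-tRNA on the way to selenocysteinyl-tRNA, had 19.2 and 33.3 TPM. Sepsecs, which completes that conversion, had 13.0 and 8.96 TPM. Tarsl2 and Sepsecs were higher in replicate 1 and Pstk lower. Of the deacylases that clear mischarged tRNA, Dtd1 had 49.4 and 63.5 TPM and Dtd2 had 7.32 and 13.1 TPM.

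Elongation factors that carry charged tRNA to the ribosome also differed widely between compartments. Eef1a1, the cytosolic carrier, had 10904 and 6856 TPM, while Tufm, its mitochondrial counterpart, had 8.58 and 12.7 TPM. Genes of the amino acid response, in which ATF4 induces synthetase genes in mammalian cells, were detected in 9 of 11 cases. The share over 21474 protein-coding genes was 45.5%. Asns had 369 and 342 TPM, Ddit3 165 and 173 TPM, and Atf4 94.8 and 79.9 TPM. Eif2ak1, the heme-regulated kinase upstream of ATF4 in red cell precursors, had 59.2 and 67.8 TPM, and Eif2ak4, the kinase that senses uncharged tRNA, had 14.7 and 14.3 TPM. Chac1 and Slc7a11, other targets of ATF4, were under 1 TPM in replicate 1, at 0.34 and 0.54 TPM, against 2.48 and 0.79 TPM in replicate 2. The targets of the response were thus unequal in level, and without untreated cells their state before DMSO was not analysed here.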

How the data were processed

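PolyA RNA-seq of 2 libraries of 1 group was used. Reads were placed on mm10 per the labels, and quantified with GENCODE M4 per the deposited file lists. For the quantification program and the strand setting, nothing is given in the sources used here. Per the file headers, the authors deposited expected counts (estimated reads) without scaling, TPM and FPKM scaled to length and depth, posterior means, and the percent of a gene's TPM on each transcript. The deposited credibility bounds and posterior SDs, a signal never below 0, have no stated level. The rule for the members uses gene names alone, but this gene family, the lists and the tests were chosen with earlier results of these data known.

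Symbols, classes and coordinates came from GENCODE M21 by Ensembl ID (42462 of 43346 matched). Rows that name no gene (26248 numeric, 97 others) held 0.0296% and 0.0465% of reads and stayed out. All 36 members and every gene of the support lists could be named, but some listed genes are not reported here. Levels used log2(TPM + 0.1). Rounded expected counts were scaled with edgeR 4.0.16 (TMM, prior count 1, mean count of at least 10), with DESeq2 1.42.0 size factors as an alternative, in R 4.3.3. A self-test on simulated data preceded them. GC was the TPM-weighted mean of a gene's transcripts, and the lowess trend (span 0.3) used genes with at least 100 counts. Shared sequence was found with BLAST+ 2.17.0. A complete coding sequence is one annotated with start and end, chosen after the data were seen. Python 3.11.15 with pandas 2.3.3, statsmodels 0.14.6 and matplotlib 3.10.9 did the rest.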

Additional observations from a re-analysis of the deposited data

How the results depend on the processing

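No paired analysis was possible because there is only 1 group. The cytosolic minus mitochondrial median log2 level (2.60) stayed positive under every alternative run. It was 2.46 with a pseudocount of 1, 2.52 over members with at least 1 TPM in both libraries, 2.52 without Kars and Gars and 2.84 on protein-coding transcripts. It was 2.70 on complete coding transcripts and 3.29 without members that overlap or resemble another gene, both chosen after seeing the data. The libraries lay further apart under these choices. The SD was 0.750 on protein-coding transcripts, 0.742 on complete coding transcripts and 0.684 without the overlapping members, against 0.072 for the main value. It was at most 0.187 under the other alternatives that kept both libraries. Leaving out 1 library gave 2.55 to 2.65. The count of pairs with a higher cytosolic gene was 12 under each alternative. A pseudocount added to both genes cannot reverse a pair. Leaving out 1 library could not change this count either, since no pair changed direction between the libraries. Only posterior mean TPM, counts not divided by length and the choice of transcripts could have changed it. The median of the mean log2 ratio over the pairs (2.68) was 2.97 on protein-coding transcripts and 1.53 on complete coding transcripts. Members above 2-fold between the libraries (2) became 0 with total counts and 1 with TPM ratios, and those below 0.5-fold (3) became 8 with either and 0 with the GC trend removed. The 8 of 36 stand against 22.4% of all genes by total counts and 21.3% by TPM ratios, near the background. The median level (23.9 TPM by mean) was 19.1 TPM from replicate 1 alone and 22.9 TPM from replicate 2 alone. With 2 libraries, leaving out 1 cannot move the mean ratio of a pair by more than its SD. Apart from that alternative, 51 of 65 values for single pairs moved by less than the SD and 14 by more, with none reversed. The cause was not tested. Depth limits Ears2, Pars2 and the transcript shares of few-read genes, and 2 libraries limit every SD.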
